A study of Mus musculus with 15 samples.

Results

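Ribosome binding in mouse liver at subjective dawn was compared with that at subjective dusk in 6 of 14 ribosome profiling libraries. The members were taken by their names: the 4 dawn libraries are those titled CT00 and CT24 (2 mice each), and the 2 dusk libraries are those titled CT12. All mice were wild-type C57BL/6N males, 8 to 10 weeks old, with no transgene, drug or diet treatment named. They were kept for 2 weeks in a cycle of 12 h light and 12 h dark and then moved to constant darkness. By the paper's methods, collection began at CT0 after 24 h of darkness and went on to CT24. The CT12 mice thus spent more hours in darkness than the CT0 mice and fewer than the CT24 mice. As far as the labels go, dawn and dusk mice differ by circadian time and by the hours spent in darkness up to then. In constant darkness, CT0 is the time at which the lights would have come on and CT12 the time at which they would have gone off. The other 8 libraries (CT4, CT8, CT16 and CT20) served to estimate the spread between mice. Each library holds the number of ribosome-protected reads counted in the 5′UTR, coding sequence (CDS) and 3′UTR of 28167 RefSeq transcripts, and the 3 numbers were added. A library stands for 1 whole liver, so p-values measure the spread between mice, and fewer cells of a type, less mRNA per cell and fewer ribosomes per mRNA cannot be told apart.

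The liver clock is a feedback loop of transcription factors. BMAL1 (gene Arntl) pairs with CLOCK or NPAS2, binds E-boxes and drives the genes of its own repressors, the PER and CRY proteins, which later shut the pair down. A second loop runs through the nuclear receptors REV-ERB (Nr1d1, Nr1d2) and ROR, which compete for the same elements in Arntl and other genes, and another through the PAR bZIP factors (Dbp, Tef, Hlf) and NFIL3, which compete at D-boxes. These factors, together with feeding and hormones, time much of liver metabolism, genes of sterol, bile acid, glucose and heme metabolism among them. Whether they set the differences given below was not tested.

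Total counts were 40593197 to 54265729 in the dawn libraries and 78144403 to 90458783 in the dusk libraries. Much of that gap lay in transcripts of the major urinary proteins (Mup), so levels are given as TMM-scaled CPM (counts divided by the scaled library total), which does not rest on the raw total. Transcripts averaging 10 or more counts over the 14 libraries were tested with edgeR, 17299 in all, and the most abundant transcript stood for each of 11655 genes. The hepatocyte markers (8 of 8 measured, among them Alb and Apob) summed to 42935 to 54545 CPM at dawn and 41627 to 53932 CPM at dusk, and 1 of the 8, Cyp2e1, passed the test. Kupffer cell, endothelial, lymphocyte, neutrophil, erythroid and adipocyte markers had no member past the threshold in edgeR, with 1, 0, 0, 1, 1 and 0 at an unadjusted p under 0.05. Neutrophil markers (5 of 6 in the files, Camp at 0) were scarce but did not overlap, summing to 0.0322 to 0.493 CPM at dawn and 1.15 to 1.20 CPM at dusk. Among stellate cell and cholangiocyte markers 1 of 8 (Pdgfrb, 0.87, adjusted p = 0.0137) and 1 of 6 (Sox9, 1.48, adjusted p = 0.0167) were higher at dawn (1 and 2 at an unadjusted p under 0.05); these were singled out after their values were seen. The medians of the marker lists were 0.17 and 1.24, with 8 of 8 and 5 of 6 above 0. Both calls were lost without CT12 replicate 2, at 0.66 (adjusted p = 0.109) and 1.41 (adjusted p = 0.0776). Sox9 was also lost without CT0 replicate 1 (1.31 (adjusted p = 0.0586)), CT12 replicate 1 (1.55 (adjusted p = 0.106)) or CT24 replicate 1 (1.25 (adjusted p = 0.0615)). Pancreatic acinar markers summed to 75.3 CPM in CT24 replicate 2 and 37.2 CPM in CT12 replicate 2, against 4.34 to 8.67 CPM in the other 4 libraries, none of the 11 was past the threshold (0 at an unadjusted p under 0.05), and none was at 0 in all 6 libraries. One library outside the comparison, CT20 replicate 2, reached 3807 CPM for the same markers, and their part in the results was not tested beyond leaving libraries out.

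At an adjusted p under 0.05, 440 genes (3.78% of those tested) had more ribosome-protected reads at dawn and 450 (3.86%) had more at dusk. By transcript, 684 (3.95%) were higher at dawn and 656 (3.79%) higher at dusk. Changes at dawn were the larger: 252 of the 440 dawn genes differed at least 2-fold, 64 at least 4-fold and 28 at least 8-fold, against 173, 41 and 17 of the 450 dusk genes. The median log2 difference (dawn minus dusk) was 1.10 over the dawn genes, -0.88 over the dusk genes and -0.0016 over all genes. In 879 of the 890 genes the 4 dawn libraries all lay on one side of both dusk libraries, which held for 29% of all genes tested. Between CT24 and CT0 the same fit called 0 of 17299 transcripts (873, or 5.05%, had an unadjusted p under 0.05). These counts depend on single livers: without CT12 replicate 1 they fell to 207 dawn and 163 dusk genes, and the dusk count was 279 without CT0 replicate 1, 299 without CT0 replicate 2 and 296 without CT24 replicate 2. Without the 3 libraries with most acinar reads (CT12 replicate 2, CT20 replicate 2 and CT24 replicate 2) there were 742 dawn and 513 dusk genes, of which 311 and 296 were among the 440 and 450.

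**Figure D1:**
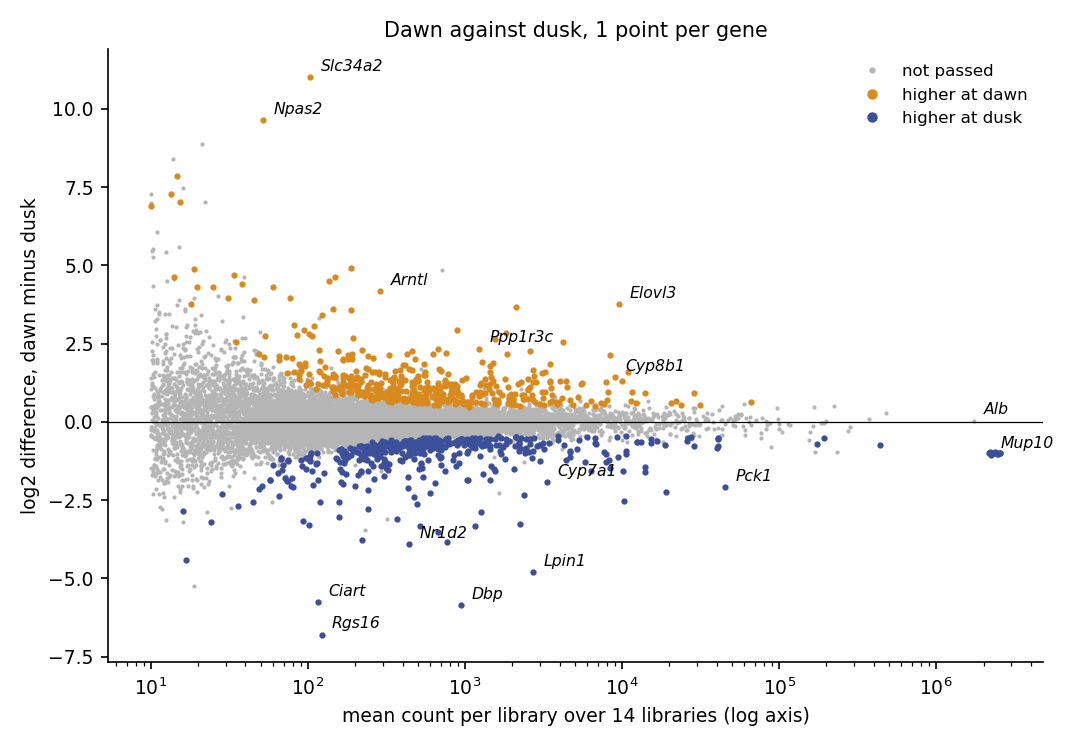
Each point is a gene, placed by its mean count over 14 libraries (log axis) and its log2 difference between dawn and dusk; 440 genes higher at dawn are orange and 450 higher at dusk are blue. Differences of more than 8-fold occur on both sides, and the most abundant Mup transcripts lie at the far right, near a log2 difference of -1.0. The fitted heights of Slc34a2 and Npas2, at 0 in both dusk libraries, depend on the prior count and are no bound.

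All 3 clock activators measured were higher at dawn, with a median log2 difference of 4.19. Values are given for CT0 replicates 1 and 2 and then CT24 replicates 1 and 2, followed by CT12 replicates 1 and 2. Arntl, which encodes BMAL1 (chr7:113178471-113314126, GRCm38.p6), had 8.08, 8.89, 8.83 and 6.69 CPM at dawn and 0.568 and 0.296 CPM at dusk (log2 difference 4.19 ± 0.38 (SE), adjusted p = 1.44e-06). Npas2, the partner of BMAL1 related to CLOCK, had 1.69, 1.90, 1.73 and 1.39 CPM at dawn and no reads in either dusk library (adjusted p = 3.87e-05). Against a floor of 3 counts in each dusk library, 0.0446 CPM on average, Npas2 was at least 37.6-fold higher at dawn. Clock itself had 8.27, 6.79, 9.54 and 7.52 CPM at dawn and 3.60 and 2.68 CPM at dusk (log2 difference 1.35 ± 0.20 (SE), adjusted p = 0.000316). No dawn library overlapped a dusk library for any of the 3, and each kept its call without any of the 6 libraries. Arntl2, also listed, did not reach the count minimum.

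Of 10 repressors, 7 were higher at dusk, 1 was higher at dawn and 2, Per2 and Cry2, did not pass, with a median log2 difference of -2.98. Both passed at dusk in limma-voom (adjusted p = 0.0327 and 0.0393) and in a fit of only the 6 libraries (adjusted p = 0.0460 and 0.0449), and Cry2 also in DESeq2 (adjusted p = 0.0383) and against CT24 alone (adjusted p = 0.0239). Per1, a repressor that is also induced by light and hormones, had 1.01, 1.43, 1.39 and 2.90 CPM at dawn and 9.53 and 12.9 CPM at dusk (log2 difference -2.78 ± 0.33 (SE), adjusted p = 3.21e-05). For Per3 the values were 0.321, 0.499, 0.489 and 0.440 CPM and 4.97 and 3.65 CPM (log2 difference -3.30 ± 0.33 (SE), adjusted p = 4.78e-06). Per2 differed in the same direction in every library, from 5.57, 3.68, 5.50 and 4.70 CPM to 7.50 and 8.78 CPM, and missed the threshold (log2 difference -0.74 ± 0.26 (SE), adjusted p = 0.104). Its level went on rising after dusk, to a mean of 15.7 CPM at CT16, so CT12 lay on its way up. The cryptochromes divided. Cry1 had 9.78, 12.4, 8.81 and 8.01 CPM at dawn against 2.63 and 2.82 CPM at dusk (log2 difference 1.83 ± 0.24 (SE), adjusted p = 8.09e-05), whereas Cry2 had 7.27, 6.58, 4.28 and 4.42 CPM against 8.43 and 8.45 CPM and did not pass (log2 difference -0.62 ± 0.19 (SE), adjusted p = 0.0579). That the 2 genes differ was not tested.

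Ciart (also called CHRONO), which represses BMAL1 and CLOCK, had 0.202, 0, 0.245 and 0.106 CPM at dawn and 8.37 and 6.11 CPM at dusk (log2 difference -5.77 ± 0.61 (SE), adjusted p = 7.96e-06). Bhlhe40 and Bhlhe41 (DEC1 and DEC2) compete with BMAL1 and CLOCK for E-boxes. Bhlhe40 had 14.5, 13.5, 15.9 and 15.5 CPM at dawn and 39.8 and 44.9 CPM at dusk (log2 difference -1.51 ± 0.19 (SE), adjusted p = 5.68e-05). Bhlhe41 had 0.439, 0.531, 0.163 and 0.194 and 1.44 and 3.91 CPM (log2 difference -3.17 ± 0.51 (SE), adjusted p = 0.00066). The REV-ERB genes behaved alike in sign: Nr1d1 had 1.89, 1.98, 2.59 and 1.69 CPM at dawn and 14.6 and 26.3 CPM at dusk (log2 difference -3.33 ± 0.30 (SE), adjusted p = 1.11e-06). Nr1d2 went from 0.928, 1.53, 1.35 and 0.546 CPM to 14.7 and 17.2 CPM (log2 difference -3.89 ± 0.27 (SE), adjusted p = 3.78e-08). The mean of Nr1d1 was 59.7 CPM at CT8 and 20.4 CPM at CT12, so at dusk it was already past its highest value, and Nr1d2 was near its highest, with 14.8 and 15.9 CPM. The calls for these 5 genes held without any of the 6 libraries.

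Of the PAR bZIP factors, NFIL3 and RORA, 2 were higher at dusk, 1 was higher at dawn and 2 did not pass. Dbp, the activator at D-boxes (chr7:45705100-45710203), had 0.658, 0.901, 0.754 and 0.757 CPM at dawn and 36.2 and 52.5 CPM at dusk (log2 difference -5.85 ± 0.33 (SE), adjusted p = 7.66e-09). Tef, a factor of the same family, had 3.17, 4.29, 4.46 and 4.73 CPM and 21.2 and 19.1 CPM (log2 difference -2.28 ± 0.19 (SE), adjusted p = 5.93e-07). Hlf, also of that family, had 6.28, 5.31, 7.71 and 6.44 CPM and 7.26 and 8.09 CPM, with overlapping groups (log2 difference -0.26 ± 0.21 (SE), adjusted p = 0.521). Nfil3, the repressor at the same D-boxes, was opposite in sign to Dbp, with 10.5, 12.1, 11.01 and 9.72 CPM at dawn and 2.78 and 4.09 CPM at dusk (log2 difference 1.66 ± 0.32 (SE), adjusted p = 0.00290). Its log2 difference without CT12 replicate 1 was 1.40 (adjusted p = 0.0720). Rora, which encodes an activator at ROR elements, had 10.97, 11.05, 9.74 and 7.92 CPM and 6.99 and 6.75 CPM and did not pass (log2 difference 0.52 ± 0.18 (SE), adjusted p = 0.0942). Among 11 kinases and ubiquitin ligases of the clock proteins, 1 passed: Usp2, a deubiquitinase, had 3.19, 2.32, 3.12 and 2.83 CPM at dawn and 33.2 and 31.8 CPM at dusk (log2 difference -3.50 ± 0.20 (SE), adjusted p = 7.66e-09). Csnk2b, the member with most reads that did not pass, had 34.3, 33.7, 33.7 and 27.5 CPM and 38.4 and 39.3 CPM.

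**Figure D2:**
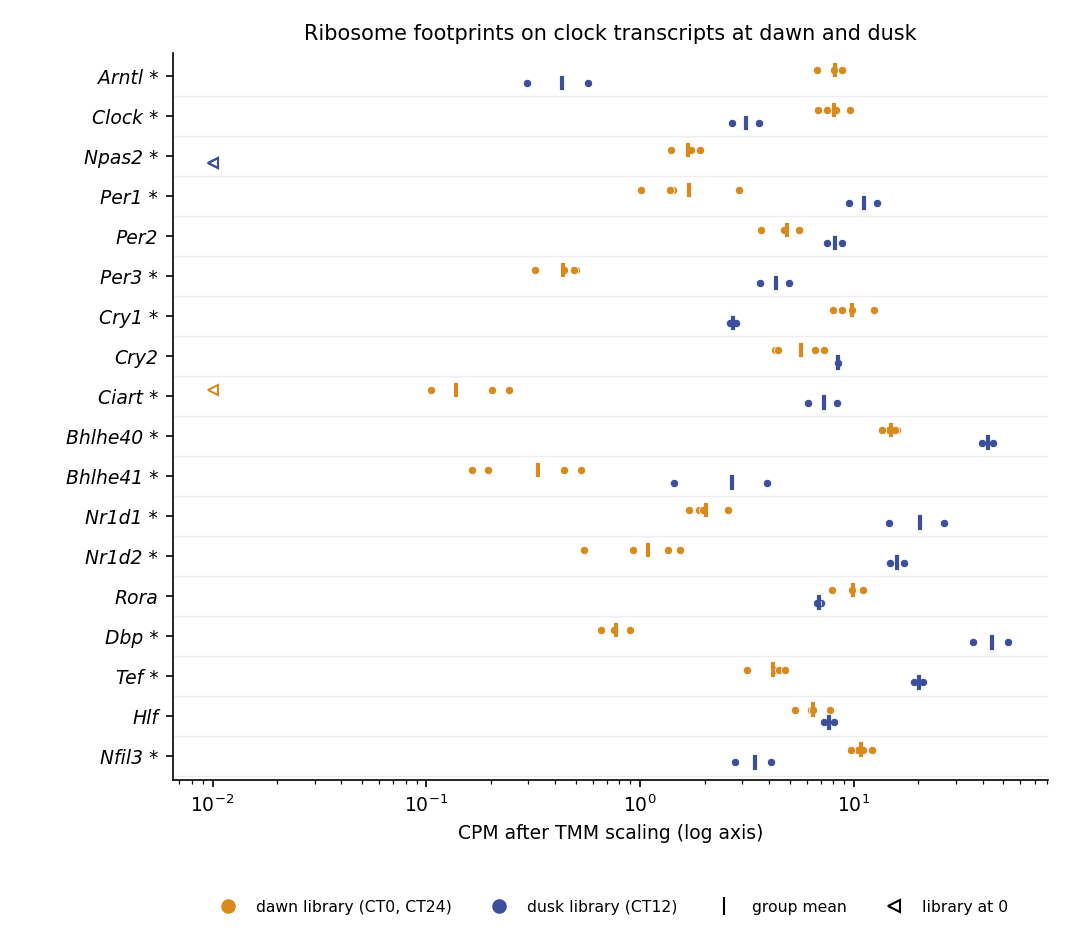
Each row is a clock gene, each dot a library at dawn (orange, n = 4) or dusk (blue, n = 2) in TMM-scaled CPM on a log axis, each tick a group mean, and a star marks adjusted p under 0.05. Open triangles stand for libraries at 0, which have no place on a log axis: both dusk libraries of Npas2 and 1 dawn library of Ciart.

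Stretches of promoter are shown for 6 of these genes because they hold the letters that the clock factors are known to bind, and because the genes moved in different directions. The sequences are from RefSeq promoter windows (250 bases before to 50 after a start site, GRCm38.p6), which were at hand for 9373 of the 11655 genes. Capitals mark the match: CACGTG for an E-box, TTATGTAA or TTACGTAA for a D-box, TAGGTCA or TGGGTCA for a ROR element, each searched on both strands, with 10 bases on each side.
Ciart: catctagagtCACGTGttgccggtaa
Ciart: cagggggaggCACGTGcagaaccgca
Ciart: tgcagaaccgCACGTGtctgggaggg
Per1: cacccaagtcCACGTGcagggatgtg
Cry1: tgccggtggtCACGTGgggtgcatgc
Per3: gacccgcgcgTTATGTAAggtactcggg
Per3: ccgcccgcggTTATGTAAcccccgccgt
Nfil3: cgctcggaacTGACCTActaacacaca
Arntl: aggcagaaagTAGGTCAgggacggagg
The 3 E-boxes of Ciart begin 116, 58 and 44 bases before its start site, at chr3:95882329-95882354 (- strand), chr3:95882271-95882296 (- strand) and chr3:95882257-95882282 (- strand), the last 2 stretches overlapping. Per1 has 1 E-box at chr11:69098773-69098798 (+ strand) and Cry1 has 1 at chr10:85185099-85185124 (- strand), though Per1 was higher at dusk and Cry1 at dawn. Per3 holds 2 D-boxes with the letters TTATGTAA, at chr4:151044853-151044880 (- strand) and chr4:151044806-151044833 (- strand). In Nfil3 the ROR element is read on the other strand at chr13:52981035-52981061 (- strand), and in Arntl it lies 30 bases after a start site at chr7:113207531-113207557 (+ strand). Over all 9373 genes with a window, an E-box occurred in 11.8%, a D-box in 0.918% and a ROR element in 6.57%, so an E-box alone sets few genes apart. Windows were at hand for 343 of the 440 dawn genes and 356 of the 450 dusk genes, under 80% of each, so a comparison of motif shares between them is void. The windows of Clock, Npas2, Cry2, Nr1d1, Nr1d2, Rora, Dbp and Hlf held no E-box, D-box or ROR element. Tef and Bhlhe41 held E-boxes that are not shown, and Per2 and Bhlhe40 had no window. Klf15, which did not pass, held 3 E-boxes, as many as Ciart. The 6 genes were picked for their matches, so they do not show that matches go with a call. A match is a description of letters, not of binding.

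Outside the clock, the genes with the widest gaps at dusk were Rgs16, Lpin1, the metallothioneins Mt1 and Mt2, and Noct. Lpin1 (chr12:16535669-16653903), which encodes a phosphatidate phosphatase that also acts as a transcriptional coactivator, had 6.19, 6.47, 7.46 and 7.59 CPM at dawn and 205 and 177 CPM at dusk (log2 difference -4.79 ± 0.17 (SE), adjusted p = 6.67e-12). Its mean was 23.3 CPM at CT8 and 39.3 CPM at CT16, a narrow peak around dusk. Noct, which encodes nocturnin, had 3.26, 2.24, 2.39 and 2.89 CPM and 24.9 and 28.6 CPM (log2 difference -3.31 ± 0.19 (SE), adjusted p = 7.66e-09). Rgs16, a brake on G protein signaling, was close to 0 in every dawn library (0.0675, 0, 0.0612 and 0.282 CPM) and differed between the 2 dusk libraries, with 14.9 and 2.59 CPM (log2 difference -6.79 ± 1.10 (SE), adjusted p = 0.000718). With limma-voom in place of edgeR, Rgs16 gave -6.80 (adjusted p = 0.179). The metal-binding Mt1 had 2.61, 2.54, 2.43 and 2.55 CPM at dawn and 48.8 and 23.2 CPM at dusk (log2 difference -3.83 ± 0.49 (SE), adjusted p = 6.53e-05). Mt2 had 0.675, 1.67, 0.510 and 0.352 and 13.0 and 6.47 CPM (log2 difference -3.78 ± 0.62 (SE), adjusted p = 0.000877). For both genes CT12 replicate 1 was well above replicate 2, and neither came near a dawn library.

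Of the genes far higher at dawn, Slc34a2, a sodium-phosphate cotransporter (chr5:53049353-53071664), had 5.94, 3.96, 3.36 and 4.17 CPM at dawn and no reads in either dusk library (adjusted p = 0.00022), at least 97.7-fold higher against the floor of 3 counts per library. Elovl3, an elongase of very long chain fatty acids, had 286, 319, 304 and 308 CPM at dawn and 21.1 and 23.6 CPM at dusk (log2 difference 3.77 ± 0.27 (SE), adjusted p = 5.09e-08), with little spread inside either group. Tubb2a, a beta-tubulin, had 58.2, 53.6, 80.6 and 57.9 CPM and 5.96 and 3.69 CPM (log2 difference 3.68 ± 0.31 (SE), adjusted p = 5.93e-07). Ppard, a nuclear receptor for fatty acids, had 5.50, 4.76, 6.40 and 4.12 CPM and 0.0123 and 0.487 CPM (log2 difference 4.50 ± 0.69 (SE), adjusted p = 0.000452). Cdkn1a, the cell cycle inhibitor p21, had 6.39, 4.68, 3.16 and 4.72 CPM and 0.234 and 0.557 CPM (log2 difference 3.60 ± 0.59 (SE), adjusted p = 0.000835). Loxl4, an enzyme of matrix cross-linking, reached 10.3, 8.60, 5.71 and 4.56 CPM at dawn and 0 and 0.504 CPM at dusk (log2 difference 4.92 ± 0.74 (SE), adjusted p = 0.000399). The receptor kinase Grk5 had 3.34, 6.92, 4.59 and 3.75 CPM and 0.321 and 0.0174 CPM (log2 difference 4.63 ± 0.65 (SE), adjusted p = 0.000178), and with limma-voom its value was 5.32 (adjusted p = 0.0520). Lrfn3 (3.57, adjusted p = 2.2e-05) and Lgalsl (3.41, adjusted p = 1.92e-06), genes with leucine-rich repeat and galectin-like products, completed this group. Elovl3 and Tubb2a were the 2 with ample reads at both times.

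Genes known to carry the clock's timing to other processes moved both ways: of 20 such output regulators, 4 were higher at dawn, 8 higher at dusk and 8 did not pass, a split that held without any of the 6 libraries. Klf15, a regulator of amino acid and glucose metabolism and the member with most reads that did not pass, had 39.9, 38.5, 36.4 and 40.4 CPM and 48.4 and 49.3 CPM. For this list and those that follow, the shares over all genes tested were 3.78% higher at dawn and 3.86% higher at dusk.

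Of 26 genes of cholesterol synthesis and uptake, 11 were higher at dawn, 1 was higher at dusk and 14 did not pass, and the median log2 difference was 0.60, beside -0.0016 over all genes. Pmvk, phosphomevalonate kinase, had 16.6, 15.7, 12.9 and 10.1 CPM at dawn and 3.41 and 3.41 CPM at dusk (log2 difference 2.00 ± 0.22 (SE), adjusted p = 1.51e-05). Hmgcs1, the cytosolic HMG-CoA synthase, had 53.5, 59.8, 62.8 and 67.5 CPM and 24.7 and 19.3 CPM (log2 difference 1.46 ± 0.25 (SE), adjusted p = 0.00119). Further down the pathway, the squalene synthase Fdft1 had 15.8, 16.7, 16.9 and 18.4 CPM and 7.38 and 5.93 CPM (log2 difference 1.34 ± 0.29 (SE), adjusted p = 0.00776). The lanosterol synthase Lss had 20.2, 18.3, 19.4 and 15.0 CPM and 7.37 and 8.23 CPM (log2 difference 1.22 ± 0.24 (SE), adjusted p = 0.00372). Without CT12 replicate 2 Fdft1 gave 1.19 (adjusted p = 0.0655), and without CT12 replicate 1 Lss gave 1.14 (adjusted p = 0.0675). The number higher at dawn was 7 without CT0 replicate 1, 6 without CT12 replicate 1, and 3 without CT12 replicate 2 or without the 3 libraries with most acinar reads, while the median stayed between 0.54 and 0.72 in the fits with 1 library left out. Insig2, which holds back sterol-regulated transcription factors in the endoplasmic reticulum and was named after its values were seen, had 56.6, 65.8, 47.9 and 68.5 CPM at dawn and 9.21 and 15.8 CPM at dusk (2.26, adjusted p = 9.46e-05).

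Of 24 genes of fatty acid synthesis, 7 were higher at dawn, 2 were higher at dusk and 15 did not pass, with a median of 0.41. That median was 0.22 without CT12 replicate 2 and 0.20 without the 3 libraries with most acinar reads. Acly, which makes cytosolic acetyl-CoA, had 226, 205, 284 and 219 CPM at dawn and 111 and 76.2 CPM at dusk (log2 difference 1.32 ± 0.22 (SE), adjusted p = 0.00119). Acacb, which makes malonyl-CoA at mitochondria, had 68.5, 59.8, 64.8 and 61.8 CPM and 27.3 and 22.0 CPM (log2 difference 1.37 ± 0.17 (SE), adjusted p = 5.27e-05). Lpin1, the member with the widest gap, went the other way, as did Fads2 (a desaturase, -0.46, adjusted p = 0.0454), and with any 1 of the 6 libraries left out the dusk count was 1. Scd1, the stearoyl-CoA desaturase, had 1895, 2025, 1717 and 1624 CPM and 1573 and 1094 CPM and did not pass (adjusted p = 0.336).

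Of 34 genes of fatty acid oxidation and ketogenesis, 5 were higher at dawn and 4 higher at dusk (8 and 5 in DESeq2 and in limma-voom), and the median was 0.10, or 0.0086 to 0.22 with 1 library left out, lowest without CT12 replicate 1 and highest without CT12 replicate 2. Pdk4, which blocks entry of pyruvate into mitochondrial oxidation, had 2.75, 2.32, 4.14 and 3.64 CPM at dawn and 0.839 and 0.400 CPM at dusk (log2 difference 2.31 ± 0.53 (SE), adjusted p = 0.0110). The microsomal fatty acid hydroxylase Cyp4a14 had 97.2, 107, 41.6 and 104 CPM and 21.1 and 26.9 CPM (log2 difference 1.85 ± 0.53 (SE), adjusted p = 0.0406), with 1 dawn library far below the other 3. Angptl4, an inhibitor of lipoprotein lipase, had 16.6, 14.4, 13.2 and 14.7 CPM and 42.0 and 36.2 CPM (log2 difference -1.41 ± 0.28 (SE), adjusted p = 0.00361). The coactivator Ppargc1a had 0.995, 0.290, 0.734 and 1.18 CPM and 3.89 and 1.48 CPM (log2 difference -1.78 ± 0.52 (SE), adjusted p = 0.0464). Each of these 4 calls was lost without CT12 replicate 1 or 2. Pdk4 gave 1.89 (adjusted p = 0.0807) without replicate 2. With replicate 1 left out Cyp4a14 gave 1.68 (adjusted p = 0.277), Angptl4 -1.30 (adjusted p = 0.0506) and Ppargc1a -0.91 (adjusted p = 0.600). Cyp4a14 was further lost without CT0 replicate 1 (1.87 (adjusted p = 0.0738)) or CT12 replicate 2 (2.02 (adjusted p = 0.0962)), and Ppargc1a without CT24 replicate 1 (-1.63 (adjusted p = 0.135)). The calls for Cyp4a14 and Ppargc1a were also lost without CT0 replicate 2 (1.81 (adjusted p = 0.0832) and -1.46 (adjusted p = 0.145)) and without CT24 replicate 2 (1.44 (adjusted p = 0.132) and -1.97 (adjusted p = 0.0763)). Without CT12 replicate 1 the list had 1 call in each direction, and the dawn count was 2 without CT0 replicate 2 and 3 without CT0 replicate 1 or CT24 replicate 2.

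In glucose output and glycogen metabolism, 8 of 28 genes were higher at dusk and 3 higher at dawn. Pck1, the enzyme that commits carbon to gluconeogenesis, had 322, 479, 337 and 357 CPM at dawn and 1600.5 and 1581 CPM at dusk (log2 difference -2.09 ± 0.19 (SE), adjusted p = 1.55e-06). Gys2, the liver glycogen synthase, had 55.6, 61.2, 63.4 and 68.7 CPM and 185 and 186 CPM (log2 difference -1.58 ± 0.14 (SE), adjusted p = 7.46e-07). Pfkfb3, which sets the level of a glycolytic activator, had 1.92, 2.16, 2.71 and 2.73 CPM and 21.1 and 19.2 CPM (log2 difference -3.10 ± 0.18 (SE), adjusted p = 7.66e-09). All 3 had dusk libraries within a narrow range and far from every dawn library. Ppp1r3c, which brings a phosphatase to glycogen and so favors its synthesis, was opposite to Gys2, with 39.3, 24.9, 41.6 and 44.1 CPM at dawn and 9.93 and 4.63 CPM at dusk (log2 difference 2.34 ± 0.30 (SE), adjusted p = 6.17e-05). Tat, tyrosine aminotransferase and the member with most reads that did not pass, had overlapping groups, 685, 582, 612 and 518 CPM and 807 and 565 CPM. The dusk count was 5 without CT12 replicate 1, and the list's median of -0.14 then became 0.01, against -0.29 without the 3 libraries with most acinar reads.

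Bile acid synthesis was divided by enzyme. Cyp7a1, the rate-limiting enzyme of the classical route, had 21.3, 20.9, 44.1 and 42.2 CPM at dawn and 139 and 89.5 CPM at dusk (log2 difference -1.92 ± 0.22 (SE), adjusted p = 1.67e-05). Cyp8b1, which makes the precursor of cholic acid, was opposite, with 202, 214, 217 and 198 CPM at dawn and 65.7 and 87.3 CPM at dusk (log2 difference 1.44 ± 0.18 (SE), adjusted p = 6.31e-05). Cyp7b1 of the alternative route had 114, 109, 152 and 173 CPM and 303 and 421 CPM (log2 difference -1.43 ± 0.31 (SE), adjusted p = 0.00790). Its value without CT12 replicate 2 was -1.18 (adjusted p = 0.0667). The exporter of conjugates into bile, Abcc2, had 101, 139.8, 128 and 141 CPM and 263 and 249 CPM (log2 difference -1.01 ± 0.15 (SE), adjusted p = 0.00028). In all, 3 of 25 genes were higher at dawn, 6 were higher at dusk and 16 did not pass, among them Scp2, a sterol carrier, with 1165, 1189, 1288 and 1294 CPM and 1438 and 1460.4 CPM. Without CT12 replicate 1 the counts were 1 and 3, and the dusk count was 4 without CT0 replicate 1 or without CT24 replicate 2. Between the dawn pairs Cyp7a1 differed by 1.03 on the log2 scale, CT24 above CT0, which did not pass (adjusted p = 0.957).

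Of 60 genes of xenobiotic metabolism, 3 (5.00%) were higher at dawn and 7 (11.7%) were higher at dusk, with a median of -0.03. The shares over all genes tested were 3.78% and 3.86%. Among the 7 are a pair that serve cytochrome P450 enzymes as a class. Alas1, the rate-limiting enzyme of heme synthesis, had 70.1, 133, 213 and 275 CPM at dawn and 742 and 728 CPM at dusk (log2 difference -2.22 ± 0.23 (SE), adjusted p = 6.73e-06). Por, which hands electrons to P450 enzymes, had 90.5, 106, 113 and 88.6 CPM and 308 and 277 CPM (log2 difference -1.56 ± 0.16 (SE), adjusted p = 5.94e-06). The P450 Cyp2a5 had 85.4, 77.4, 86.3 and 133 CPM and 196 and 214 CPM (log2 difference -1.11 ± 0.20 (SE), adjusted p = 0.00145). Cyp2e1, the ethanol-inducible P450, had 1817, 2238, 2302 and 2999 CPM and 3932 and 3585 CPM (log2 difference -0.70 ± 0.17 (SE), adjusted p = 0.0181). Its call was lost without CT12 replicate 1 at -0.63 (adjusted p = 0.156), without CT0 replicate 1 at -0.63 (adjusted p = 0.0706) and without CT24 replicate 1 at -0.61 (adjusted p = 0.0761). Cyp2f2 had 811, 901, 899 and 1013 CPM and 1017 and 1145 CPM and did not pass. For Alas1, CT24 was 1.26 above CT0 on the log2 scale, which did not pass (adjusted p = 0.957). The dusk count was 3 without CT12 replicate 1 and 4 without CT24 replicate 1, and the dawn count was 0 without CT12 replicate 2, 2 without CT24 replicate 1, and 1 without any 1 of the other libraries.

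**Figure D3:**
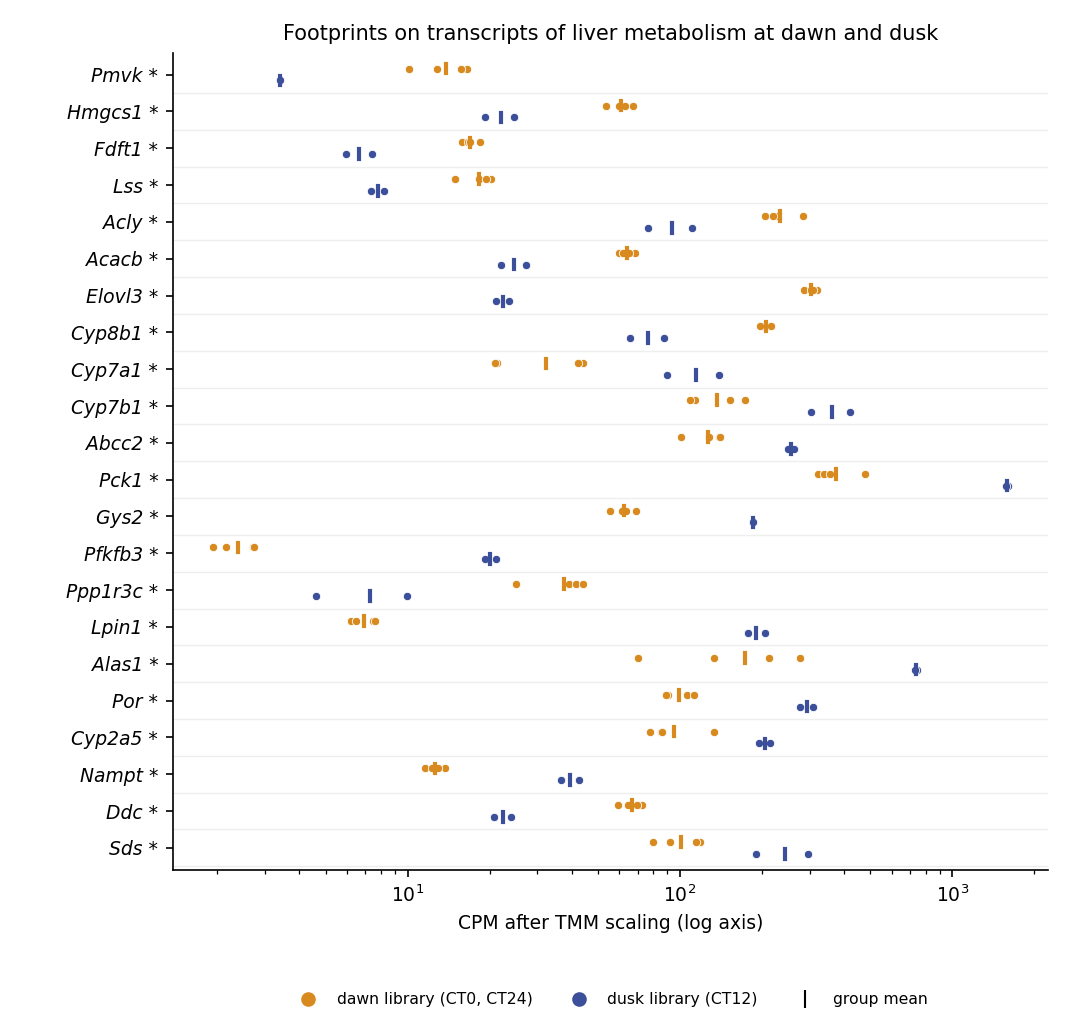
Each row is a metabolic gene named in the text, each dot a dawn (orange, n = 4) or dusk (blue, n = 2) library in TMM-scaled CPM on a log axis, each tick a group mean, and a star marks adjusted p under 0.05. Only genes that passed the threshold are drawn. In every row the 4 dawn libraries lie on one side of the 2 dusk libraries, to the right for sterol and fatty acid synthesis and Cyp8b1, and to the left for Cyp7a1, Pck1, Gys2, Lpin1, Alas1 and Por. That gap is nearly fixed by the choice of called genes. It held for 879 of 890 called genes, against 29% of all genes tested.

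Genes of NAD, one-carbon and iron metabolism gave 7 higher at dawn and 4 higher at dusk of 32. Nampt, the rate-limiting enzyme of NAD salvage, had 11.6, 12.3, 13.7 and 13.0 CPM at dawn and 42.5 and 36.6 CPM at dusk (log2 difference -1.65 ± 0.17 (SE), adjusted p = 4.78e-06). Opposite to it, Fpgs, which retains folates in cells, had 63.3, 65.7, 56.7 and 58.7 CPM and 17.97 and 20.2 CPM (log2 difference 1.67 ± 0.15 (SE), adjusted p = 7.71e-07). Hamp2, a hepcidin gene, had 18.03, 16.8, 20.1 and 30.3 CPM and 10.0 and 5.57 CPM (log2 difference 1.42 ± 0.38 (SE), adjusted p = 0.0271). That call was lost without CT12 replicate 2 at 1.05 (adjusted p = 0.179), and without CT0 replicate 1 (1.39 (adjusted p = 0.0623)), CT0 replicate 2 (1.45 (adjusted p = 0.0521)) or CT24 replicate 2 (1.26 (adjusted p = 0.0829)). Hamp, its close copy, passed on the other side (-0.93, adjusted p = 0.0328), and reads of the pair could be shared where their sequences match. Cp, the copper carrier ceruloplasmin, had 362, 391, 444 and 508 CPM and 661 and 458 CPM and did not pass. The dawn count was 4 without CT0 replicate 2 or CT12 replicate 2, and the dusk count was 1 without CT0 replicate 1, CT12 replicate 1 or CT24 replicate 2, and 2 without CT0 replicate 2 or CT24 replicate 1.

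For the urea cycle and amino acid breakdown, 3 of 33 genes were higher at dawn and 5 higher at dusk. The dawn count was 8 in DESeq2 and in limma-voom, 7 with a minimum of 100 counts and 6 with totals without Mup transcripts, each with 5 at dusk, and 1 without the 3 libraries with most acinar reads. Ddc, which makes amines from amino acids, had 72.5, 59.3, 64.5 and 69.7 CPM at dawn and 20.7 and 24.004 CPM at dusk (log2 difference 1.57 ± 0.20 (SE), adjusted p = 5.2e-05). Sds, serine dehydratase, had 92.0, 118, 79.3 and 115 CPM and 296 and 189.5 CPM (log2 difference -1.26 ± 0.21 (SE), adjusted p = 0.000846). Its value without CT12 replicate 1 was -0.91 (adjusted p = 0.0506). Cth and Bhmt, enzymes of homocysteine removal, were higher at dawn (0.95, adjusted p = 0.00809, and 0.93, adjusted p = 0.00663). Both were lost without CT12 replicate 2, at 0.64 (adjusted p = 0.104) and 0.82 (adjusted p = 0.0600). Cps1, the entry enzyme of the urea cycle, had 3125, 2916, 3386 and 3356 CPM and 3829 and 2653 CPM, with overlapping groups. The dusk count was 0 without CT12 replicate 1, 2 without CT0 replicate 1 or CT24 replicate 2, and 3 without CT0 replicate 2 or CT24 replicate 1, and the dawn count was 1 without CT12 replicate 2.

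Of 22 genes that respond to glucocorticoids and stress, 8 were higher at dusk, 2 were higher at dawn and 12 did not pass, with a median of -0.60. Mt1, Mt2, Lpin1 and Pck1 are among the 8, and Cdkn1a is among the 2. Fkbp5, a chaperone of the glucocorticoid receptor, had 3.49, 2.72, 2.57 and 3.61 CPM at dawn and 15.9 and 11.01 CPM at dusk (log2 difference -2.12 ± 0.26 (SE), adjusted p = 4.87e-05). The median was -0.10 and 6 were higher at dusk without CT12 replicate 1, against -0.998 and 9 without CT12 replicate 2 and -1.26 and 11 without the 3 libraries with most acinar reads. Without CT0 replicate 2 the median was -0.93. The dawn count was 1 without CT0 replicate 1, CT12 replicate 2 or CT24 replicate 2. Neutrophil markers were higher at dusk in the same libraries (1.15 and 1.20 CPM against at most 0.493 CPM), and their part in this list was not tested.

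Of 39 heat shock chaperones and cochaperones, 4 (10.3%) were higher at dawn and 2 (5.13%) were higher at dusk, with a median of 0.06. The shares over all genes tested were 3.78% and 3.86%. Hspb1, a small heat shock protein, had 4.37, 7.50, 6.50 and 3.75 CPM at dawn and 1.09 and 3.03 CPM at dusk (log2 difference 1.44 ± 0.35 (SE), adjusted p = 0.0176). The collagen chaperone Serpinh1 had 12.3, 9.06, 9.85 and 8.15 and 3.74 and 4.38 CPM (log2 difference 1.27 ± 0.25 (SE), adjusted p = 0.00396). Both were lost without CT12 replicate 1, at 0.86 (adjusted p = 0.254) and 1.16 (adjusted p = 0.0737). Hspb1 was also below the threshold without CT0 replicate 2 (1.22 (adjusted p = 0.0627)) or CT24 replicate 1 (1.22 (adjusted p = 0.0629)). Hspa4l (0.90, adjusted p = 0.0478) lost its call without any 1 of the 6 libraries, with adjusted p = 0.0577 to 0.180. Hsp90ab1, a major cytosolic chaperone, had 327, 310.3, 396 and 325 CPM and 251 and 240.0 CPM and did not pass (adjusted p = 0.131). The dawn count was 1 without CT12 replicate 1 and 2 without CT0 replicate 2 or CT24 replicate 1, and the dusk count was 1 without CT12 replicate 1.

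In the endoplasmic reticulum, 3 of 37 chaperones and unfolded protein response genes were higher at dusk and none at dawn in edgeR, DESeq2 or limma-voom (0 at an unadjusted p under 0.05). Herpud1, a component of protein degradation there, had 104, 57.8, 97.4 and 83.4 CPM and 241 and 230.2 CPM (log2 difference -1.46 ± 0.20 (SE), adjusted p = 0.000116). The cochaperone Dnajb9 (-0.92, adjusted p = 0.0457) and the stress sensor Atf6 (-0.54, adjusted p = 0.0168) gave -0.76 (adjusted p = 0.326) and -0.48 (adjusted p = 0.170) without CT12 replicate 1 and -0.64 (adjusted p = 0.0674) and -0.53 (adjusted p = 0.0531) without CT0 replicate 2. Dnajb9 was also lost without CT12 replicate 2 (-1.08 (adjusted p = 0.0590)), CT24 replicate 1 (-1.02 (adjusted p = 0.0671)) and CT24 replicate 2 (-0.84 (adjusted p = 0.136)). P4hb, protein disulfide isomerase, had 685, 551, 543 and 600.1 CPM and 579 and 561 CPM, with overlapping groups. Without CT0 replicate 2 or CT12 replicate 1 the count was 1, and it was 2 without CT12 replicate 2, CT24 replicate 1 or CT24 replicate 2.

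Among 23 genes of the amino acid stress response, ATF4 and genes known to follow it, 2 were higher at dawn and 5 higher at dusk. Slc38a2, an amino acid transporter, had 15.2, 25.2, 18.4 and 22.8 CPM at dawn and 63.2 and 53.3 CPM at dusk (log2 difference -1.51 ± 0.18 (SE), adjusted p = 2.46e-05), and it kept its call without any of the 6 libraries. The calls for Chac1 (-2.67, adjusted p = 0.0465), Trib3 (-1.56, adjusted p = 0.0339) and Ddit4 (1.51, adjusted p = 0.0309) did not. With CT0 replicate 1 left out they gave -2.22 (adjusted p = 0.0970), -1.58 (adjusted p = 0.0808) and 1.23 (adjusted p = 0.108), and without CT24 replicate 2 -2.75 (adjusted p = 0.109), -1.37 (adjusted p = 0.118) and 1.11 (adjusted p = 0.119). Chac1 and Trib3 were also lost without CT12 replicate 1 (-2.65 (adjusted p = 0.165) and -1.38 (adjusted p = 0.223)), Chac1 and Ddit4 without CT12 replicate 2 (-2.71 (adjusted p = 0.0775) and 1.07 (adjusted p = 0.191)), Trib3 without CT0 replicate 2 (-1.54 (adjusted p = 0.0876)) and Chac1 without CT24 replicate 1 (-2.61 (adjusted p = 0.122)). Slc38a4, a related transporter, had 265, 380.0, 386 and 375 CPM and 539 and 443 CPM and missed the threshold (adjusted p = 0.0546), but passed in 9 of 25 alternatives, DESeq2 and limma-voom among them. The dusk count was 2 without CT0 replicate 1 or CT24 replicate 2 and 1 without CT12 replicate 1. The dawn count was 1 without any 1 of those 3.

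Of 22 genes of the growth hormone axis, 3 were higher at dawn and 2 were higher at dusk. Both signal transducers were higher at dawn: Stat5b had 10.4, 14.6, 13.4 and 14.03 CPM and 6.12 and 6.64 CPM (log2 difference 1.04 ± 0.19 (SE), adjusted p = 0.00192). Stat5a had 5.47, 7.08, 5.40 and 5.14 CPM and 1.33 and 2.49 CPM (log2 difference 1.60 ± 0.32 (SE), adjusted p = 0.00396). Stat5a gave 1.21 (adjusted p = 0.0957) without CT12 replicate 1. Reads of these 2 related genes could be shared where their sequences match. Elovl3 and Cyp7b1, given above, belong to the same list, on opposite sides. The dusk count was 4 without CT0 replicate 2 and 1 without CT12 replicate 2.

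Plasma proteins are the main product of hepatocytes. Of 54 acute phase and plasma protein genes, edgeR called 4 higher at dusk and 0 at dawn (14 and 3 at an unadjusted p under 0.05), and the median was -0.06. DESeq2 called 8 at dusk and 2 at dawn, limma-voom 3 and 1, and edgeR called 12 at dusk without the 3 libraries with most acinar reads (median -0.26). The median was 0.07 without CT12 replicate 1 and -0.26 without CT12 replicate 2. Alb had 27395, 27412, 31164 and 36429 CPM at dawn and 34432 and 24729 CPM at dusk, with overlapping groups (adjusted p = 0.928). The other most abundant genes outside the Mup family were Apoe, Trf, Apob and Serpina3k, and none passed (adjusted p = 0.205 to 0.748). Saa1 and Saa2, the inducible serum amyloids, were high in 1 dusk library only: Saa1 had 18.8, 11.6, 22.6 and 16.7 CPM at dawn and 149 and 25.3 CPM at dusk (log2 difference -2.33 ± 0.54 (SE), adjusted p = 0.0122). Saa2 had 8.59, 4.87, 11.3 and 6.69 CPM and 104 and 9.46 CPM (log2 difference -2.87 ± 0.65 (SE), adjusted p = 0.0105). Without CT12 replicate 1 they gave -0.55 (adjusted p = 0.736) and -0.28 (adjusted p = 0.901). Saa4 (-0.96, adjusted p = 0.0115 with all libraries) gave -0.62 (adjusted p = 0.273) and the clotting factor F11 (-0.75, adjusted p = 0.00229 with all libraries) gave -0.59 (adjusted p = 0.0788), so that 0 of the 4 calls were left. Saa1 and Saa2 also missed the threshold without CT0 replicate 2 (adjusted p = 0.0588 and 0.0550) or CT24 replicate 2 (adjusted p = 0.0587 and 0.0581), which left 2 calls. Without CT12 replicate 2, that is with CT12 replicate 1 as the lone dusk liver, 14 of the 54 were higher at dusk.

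Of 26 cell cycle and growth arrest genes, 3 were higher at dawn and 4 were higher at dusk. Wee1, the kinase that holds cells before mitosis and a clock output gene, had 0.810, 0.933, 0.999 and 0.704 CPM at dawn and 4.85 and 5.18 CPM at dusk (log2 difference -2.54 ± 0.32 (SE), adjusted p = 6.42e-05). Ccne1 (cyclin E1, -3.19, adjusted p = 0.0264) and Ccng2 (cyclin G2, 1.86, adjusted p = 0.0191) gave -2.75 (adjusted p = 0.0921) and 1.33 (adjusted p = 0.119) without CT12 replicate 2 and -3.05 (adjusted p = 0.0854) and 1.47 (adjusted p = 0.0761) without CT0 replicate 2. Ccne1 was also lost without CT0 replicate 1 (-3.36 (adjusted p = 0.0633)) or CT24 replicate 2 (-2.68 (adjusted p = 0.0567)). G0s2 (0.98, adjusted p = 0.0706) did not pass, though it did in 8 of 25 alternatives. Of 15 immediate early genes none passed in edgeR, limma-voom or DESeq2, with 3 at an unadjusted p under 0.05. Dusp6 was the one of these with most reads (0.39, adjusted p = 0.353), and 1 passed without CT12 replicate 1 and 2 without CT12 replicate 2. The dusk count of the cell cycle list was 2 without CT0 replicate 1, CT0 replicate 2, CT12 replicate 1 or CT24 replicate 2.

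Of 81 cytosolic ribosomal protein genes 1 (1.23%) passed in edgeR (26, all at dusk, at an unadjusted p under 0.05). This was Rpl7, with 17.0, 17.97, 14.1 and 16.6 CPM at dawn and 31.1 and 22.6 CPM at dusk (log2 difference -0.72 ± 0.19 (SE), adjusted p = 0.0256), 8 of the 81 had a log2 difference above 0, and the median was -0.34. The size of that shift depends on the dusk liver. Without CT12 replicate 1 the median was -0.09 with no call and Rpl7 gave -0.47 (adjusted p = 0.373), and without CT12 replicate 2 the median was -0.56 with 11 calls. The Rpl7 call was also lost without CT0 replicate 1 (-0.70 (adjusted p = 0.0717)), CT0 replicate 2 (-0.74 (adjusted p = 0.0588)) or CT24 replicate 1 (-0.66 (adjusted p = 0.0833)), and without CT24 replicate 2 there were 6 calls. Without the 3 libraries with most acinar reads 29 of the 81 were higher at dusk (median -0.58), and DESeq2 called 5 and limma-voom 3. Rpl4, the member with most reads that did not pass, had 87.1, 82.6, 73.6 and 81.5 CPM and 125 and 92.1 CPM. Mitochondrial ribosomal proteins (79), respiratory chain subunits (77) and proteasome subunits (35) had no call in edgeR (8, 4 and 4 at an unadjusted p under 0.05), and their medians were -0.02, 0.08 and 0.02. DESeq2 called 3 mitochondrial ribosomal proteins higher at dawn and limma-voom 2, neither called any of the other 2 lists, and without CT12 replicate 2 the first list had 3 calls at dawn and 1 at dusk. Mrpl14 (28.4, 33.9, 24.8 and 29.0 CPM at dawn, 27.9 and 29.8 CPM at dusk), Atp5b (481, 512, 481 and 513 and 469.7 and 519.6 CPM) and Psmb4 (59.6, 55.3, 51.7 and 47.1 and 47.7 and 50.9 CPM) were their members with most reads.

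Of 50 initiation and elongation factors, 2 were higher at dusk, or 4.00%, near the 3.86% of all genes tested. Eif4ebp3, an inhibitor of cap-dependent initiation, had 16.7, 15.4, 12.3 and 16.9 CPM at dawn and 54.5 and 36.2 CPM at dusk (log2 difference -1.57 ± 0.30 (SE), adjusted p = 0.00322). The poly(A)-binding protein Pabpc1 had 27.0, 23.9, 31.4 and 23.8 CPM and 47.7 and 59.6 CPM (log2 difference -1.02 ± 0.18 (SE), adjusted p = 0.00177). The call for Eif4ebp3 was lost without CT12 replicate 1 at -1.24 (adjusted p = 0.0813). Eef1a1 had 282, 317, 285 and 344 CPM and 636 and 379 CPM and did not pass (adjusted p = 0.0632), though it did in 7 of 25 alternatives. The count was 3 without CT0 replicate 1, 1 without CT12 replicate 1, 5 without CT12 replicate 2 and 4 without CT24 replicate 2, and it was 6 in DESeq2, 4 in limma-voom and 7 without the 3 libraries with most acinar reads. Among 45 ribosome biogenesis factors, 3 (6.67%, beside 3.86% of all genes tested) were higher at dusk: Ncl (nucleolin, -0.71, adjusted p = 0.0133), Utp15 (-0.87, adjusted p = 0.0358) and Gnl3 (-0.65, adjusted p = 0.0470). Without CT12 replicate 1 these gave -0.64 (adjusted p = 0.140), -0.68 (adjusted p = 0.330) and -0.77 (adjusted p = 0.101). None of the 3 calls was left there, and 1 was left without CT0 replicate 2 or CT24 replicate 2. Nop10 had 23.0, 23.1, 21.4 and 21.5 CPM and 16.1 and 22.5 CPM. Of 21 aminoacyl-tRNA synthetases, Tars, the threonyl enzyme, was the 1 that passed in edgeR, with 75.3, 75.8, 83.2 and 70.0 CPM at dawn and 30.4 and 31.4 CPM at dusk (log2 difference 1.30 ± 0.15 (SE), adjusted p = 2.65e-05), a call that held without any of the 6 libraries, while Aars had 96.0, 93.4, 122 and 88.6 CPM and 84.3 and 89.4 CPM. The 1 edgeR call made 4.76% of the list, near the 3.78% of all genes higher at dawn. DESeq2 and limma-voom each called 2 further synthetases higher at dusk.

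**Figure D4:**
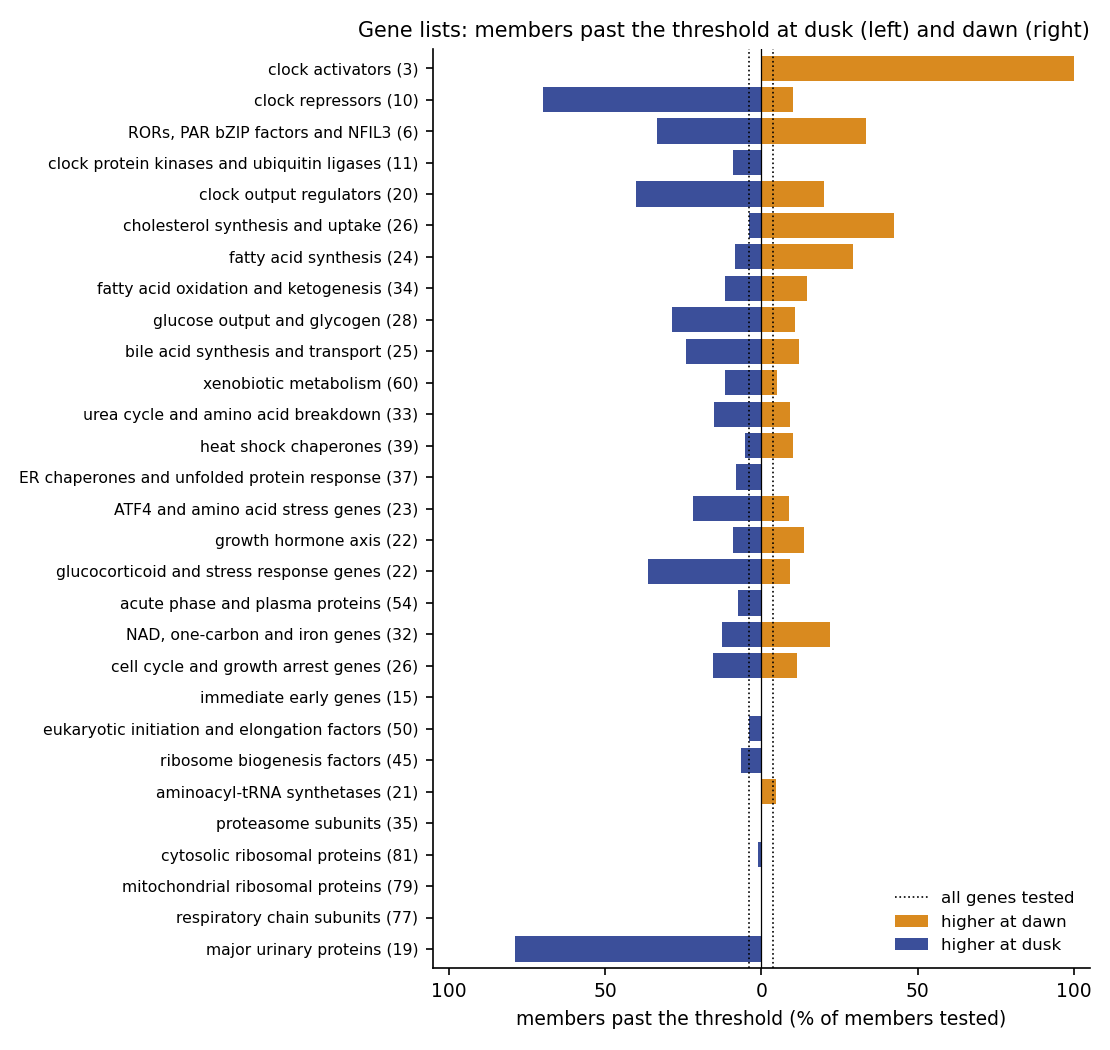
Bars give, for each gene list, the percent of its measured members (number in brackets) past the threshold, with higher at dusk to the left and higher at dawn to the right. Dotted lines mark all genes tested, 3.86% at dusk and 3.78% at dawn; clock activators reach 100% at dawn, clock repressors 70.0% at dusk and Mup genes 78.9% at dusk.

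Major urinary proteins, pheromone carriers that male liver secretes in bulk, took the largest part of the counts. They held 49.9% ± 5.78 (SD, n = 4) of all counts at dawn and 65.7% ± 7.03 (SD, n = 2) at dusk, a difference of -15.8 percentage points. An exact two-sided permutation test over the 15 ways to choose 2 of 6 libraries gave p = 0.0667, the smallest it can give, so this design cannot reach 0.05. Of 19 Mup genes measured, 15 were higher at dusk after TMM scaling, with a median log2 difference of -1.0, and none was higher at dawn in edgeR, DESeq2 or limma-voom (0 at an unadjusted p under 0.05). Mup10 had 16221, 23706, 27176 and 33008 CPM at dawn and 42993 and 58214 CPM at dusk (log2 difference -1.05 ± 0.24 (SE), adjusted p = 0.0126), and Mup19, Mup16 and Mup21 gave -1.03, -1.03 and -1.13. Mup5 had 1193, 2790.1, 2773 and 2869 CPM and 3383 and 5749 CPM and did not pass. The Mup genes are near-identical copies whose reads could be shared among them, so the 15 calls are not independent of each other. With CT24 alone as dawn 0 of the 19 passed (median -0.74), and with CT0 alone 15 did (median -1.27). Without the 3 libraries with most acinar reads the count was 1. It was 0 without CT12 replicate 2, 1 without CT0 replicate 1 or CT24 replicate 1 and 7 without CT24 replicate 2, with medians of -0.73, -0.90, -0.95 and -1.06.

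Shares of reads by transcript region were compared next, and the dusk livers lay on both sides of the dawn mean for 5′UTRs. At dawn 7.40% ± 0.611 (SD, n = 4) of counts lay in 5′UTRs, against 7.36% ± 1.46 (SD, n = 2) at dusk (exact permutation test, two-sided, p = 1), and CDS shares were 92.2% and 92.4% (p = 0.867, same exact test). The 3′UTR share was 0.365% ± 0.0275 at dawn and 0.259% ± 0.0351 at dusk (n = 4 and 2, exact permutation p = 0.0667). With Mup transcripts left out of the total, that difference of 0.106 percentage points became -0.0217. Without CT12 replicate 1 the 5′UTR and CDS differences were -0.995 and 0.913 percentage points, and without CT12 replicate 2 they were 1.08 and -1.21, against 0.0404 and -0.147 with all 6 libraries.

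For single transcripts, the number of 5′UTR reads over CDS reads went through limma for those 7640 transcripts whose 5′UTR and CDS both averaged 10 counts or more. The ratio was higher at dawn in 7 (0.0916%) and higher at dusk in none, and 591 (7.74%) had an unadjusted p under 0.05. Nagk, N-acetylglucosamine kinase, had 16, 22, 12 and 13 reads in its 5′UTR at dawn and 0 in both dusk libraries, while its CDS had 170, 170, 107 and 92 reads against 209 and 193 (adjusted p = 0.00220). Plekhf2, an endosomal protein, had 9, 31, 10 and 16 against 0 and 0 (adjusted p = 0.0156). The phosphodiesterase Pde4b had 10, 17, 10 and 16 against 0 and 0 (adjusted p = 0.0203). The next by adjusted p were Tasp1 (0.0342) and Trub2 (0.0412), and Ugt2b34 and Cilk1 passed as well; 6 of the 7 had no 5′UTR read in either dusk library. Numbers of 5′UTR reads at this level are small, and libraries differed in how many of the 7640 transcripts had none: 749 in CT12 replicate 1, 90 in CT12 replicate 2, 625 in CT24 replicate 2, 196 in CT0 replicate 2, 11 in CT0 replicate 1 and 9 in CT24 replicate 1. No call was left without CT12 replicate 1, 524 transcripts were called higher at dawn and 26 at dusk without CT12 replicate 2, and without CT0 replicate 1, CT0 replicate 2 and CT24 replicate 2 there were 2, 1 and 1 at dawn. Without CT24 replicate 1 there were 4 at dawn and 4 at dusk. An edgeR interaction of region and time called 0, so these 7 are values of this setting.

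Set in the whole day, most called genes had their extremes near the 2 times compared, which their choice by dawn and CT12 values largely fixes. Of the 10765 genes without a call, 19.4% were highest and 21.7% lowest at CT12. At dawn these shares were 12.2% and 10.7%. With CT0 and CT24 as 1 time, the highest mean of the 440 dawn genes was at dawn in 200 (45.5%), at CT20 in 103 (23.4%) and at CT4 in 101 (23.0%), and their lowest was at CT12 in 383 (87.0%). The 450 dusk genes were highest at CT12 in 366 (81.3%) and at CT16 in 49 (10.9%), and lowest at dawn in 209 (46.4%) and at CT4 in 136 (30.2%). Elovl3 fell from 256 CPM at CT4 to 48.9 CPM at CT8 and was back at 201 CPM at CT20. Pck1 had means of 959 CPM at CT8, 1591 CPM at CT12 and 747 CPM at CT16, a peak at dusk itself. Cyp7a1 stayed high after dusk, with 114 CPM at CT12 and 111 CPM at CT16.

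**Figure D5:**
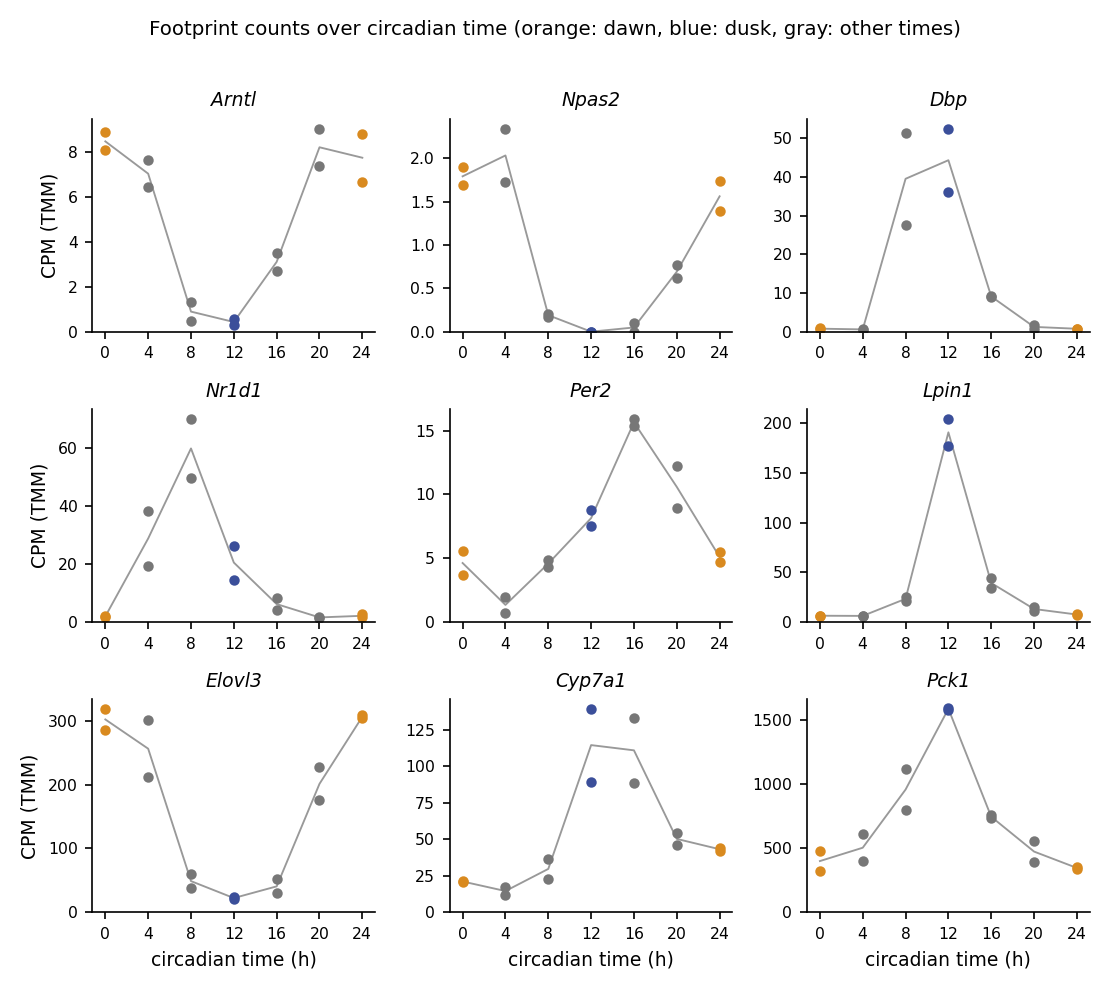
Each panel shows 1 gene, each dot a library in TMM-scaled CPM against circadian time in hours (dawn orange, dusk blue, other times gray), and the line joins the means of 2 mice. Arntl, Npas2 and Elovl3 are lowest at CT12, Lpin1, Dbp and Pck1 are highest there, Nr1d1 has passed its highest value and Per2 has not reached it.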

How the data were processed

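Ribosome-protected fragments of whole liver were sequenced from 2 mice at each of 7 circadian times. The files hold raw counts per RefSeq transcript, deposited by the authors without normalization. By the study's methods and the submitters' processing notes, adapters were clipped, rRNA reads removed with Bowtie2 2.1.0.0, the rest aligned to mm10 and exact matches extracted with SAMtools 0.1.19.0; reads of 26 to 32 nt were assigned to an A site. Density profiles used uniquely aligned reads; whether the count tables did, and how reads shared by transcripts were counted, is not given in the sources used here. The last pair is titled CT24 while a label field gives CT00, and the title was used. The counts analysed here for CT16 replicate 2 are all even numbers, and a further run of that sample is listed that was not analysed.

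Symbols came from RefSeq (27840 of 28167 transcripts) and GENCODE (27956 in all); 211 stayed unnamed. Counts of the 3 regions were added, and transcripts averaging 10 or more counts over 14 libraries were fitted in edgeR 4.0.16 (R 4.3.3): TMM scaling, 7 time groups, dispersion from all 14 libraries (7 residual degrees of freedom), quasi-likelihood F test of the mean of CT0 and CT24 minus CT12, and Benjamini-Hochberg adjustment over all 17299 transcripts, with an adjusted p under 0.05 called. SE is the log2 difference over the square root of F. The tested transcript with the highest mean count stood for a gene. The 5′UTR to CDS ratio was log2 of counts plus 0.5, fitted with limma 3.58.1. Levels are CPM on TMM-scaled totals. Floors cover counting error only, whereas SE also holds the spread between mice in the fit.

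The members and gene lists were chosen with earlier results of these data known. Some genes that the rule would name are not reported here. Named genes were all members of the 3 clock lists, the 10 widest differences in each direction (mean of at least 100 counts, groups not overlapping), up to 4 called members of each other list with its most abundant uncalled one, the 5 most abundant genes outside Mup, and up to 5 transcripts by ratio. Alternatives were 4 other scalings, DESeq2 1.42.0, limma-voom, other count minimums (1 and 100), CDS reads only, 1 transcript per gene, only the 6 libraries, CT0 and CT24 as 1 group or singly, blocks for replicate number and library code, CT16 replicate 2 halved, and each of the 6 libraries left out. Leaving out the libraries with most acinar reads was added after seeing the data. On simulated data with 200 of 17299 transcripts changed, edgeR recovered 56 of 100 at a log2 size of 1 and 100 of 100 at 2, with 11 others called. The changed transcripts were drawn from those well above the count minimum, so recovery of scarcer ones was not measured. For the 5′UTR to CDS ratio, 68 of 100 were recovered at a log2 size of 3 and 99 of 100 at 5, with 12 others called. Figures were drawn with matplotlib 3.10.9.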

Additional observations from a re-analysis of the deposited data

Results flagged for a closer look

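In 8 of 106 measures, 1 of the 4 dawn libraries stood far from the other 3, its gap to the nearest, as a share of the group's range, being past the 95% critical value of Dixon's test; chance gives about 1 in 20 such groups. Pancreatic acinar markers summed to 75.3 CPM in CT24 replicate 2, and adipocyte markers to 3.80 CPM in CT0 replicate 1. For single genes, CT24 replicate 1 stood apart in Tubb2a (80.6 CPM) and Cyp4a14 (41.6 CPM), CT24 replicate 2 in Cyp2a5 (133.0 CPM) and Ncl (40.4 CPM), and CT0 replicate 2 in Stat5a (7.08 CPM) and Ccng2 (3.06 CPM). All of the 6 genes had dawn libraries on one side of both dusk libraries. Causes were not tested.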

How the results depend on the processing

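With 2 dusk livers, leaving out a single library ended many calls. None of 92 named genes with a call changed sign in any of 25 alternatives and 51 kept their call in every alternative that tested them, among them every called clock gene except Nfil3; with a minimum of 100 counts 86 of the 92 were tested, Npas2 and Bhlhe41 not among them. Of 30 named genes without a call, 7 passed in at least 1 alternative. Over the 6 fits with 1 library left out, 207 to 605 genes were higher at dawn and 163 to 409 higher at dusk; by transcript these were 324 to 925 and 242 to 621. With CT24 alone as dawn, 250 genes (386 transcripts) were higher at dawn and 155 (235 transcripts) at dusk, and without the 3 libraries with most acinar reads (chosen after seeing the data) 742 genes (1132 transcripts) were higher at dawn. The latter fit called 0 xenobiotic genes at dawn, 2 amino acid stress genes at dusk and 1 ribosome biogenesis factor at dusk. With CT24 alone there were 5 cholesterol genes at dawn, 1 bile acid gene at dawn and 2 at dusk, 0 and 3 xenobiotic genes, and 1 urea cycle and 1 plasma protein gene at dusk. List medians near 0 changed sign with 1 library left out, to 0.04 for xenobiotic metabolism without CT12 replicate 1 and to -0.07 and -0.03 for heat shock chaperones without CT0 replicate 1 or CT12 replicate 1. Mitochondrial ribosomal proteins went to 0.03 without CT12 replicate 2, and proteasome subunits to -0.02 without CT24 replicate 1. The medians of the endoplasmic reticulum, ATF4, urea cycle, NAD and ribosome biogenesis lists also changed sign in at least 1 such fit. With only CT20 replicate 2 left out, also chosen after seeing the data, 473 genes were higher at dawn and 533 at dusk. Scaling by totals without Mup transcripts gave 443 and 366 genes, and DESeq2 gave 632 and 580. With replicate numbers as a block, 703 transcripts were higher at dawn and 679 at dusk, and Chac1 was the 1 named gene to lose its call. Samples sharing a number deviated together only weakly (correlations of -0.123 to 0.302, median 0.031, 3 of 21 over 0.1). Such a mean over all transcripts cannot exclude a batch shared by number. With the library code in the labels (meaning not stated) as a block, 643 and 589 transcripts were called, and 7 named genes lost their call under this block (Ppargc1a, Hspa4l, Dnajb9, Chac1, Ccne1, Utp15 and Gnl3); each code holds 1 of the dusk livers, too few for a comparison within a code. The Mup share differed by -20.8 to -10.8 percentage points with 1 library left out, the 5′UTR share by -0.995 to 1.08, the CDS share by -1.21 to 0.913 and the 3′UTR share by 0.0816 to 0.131; without Mup transcripts in the total, the 3′UTR difference was -0.0217. The 5′UTR to CDS ratio gave 0 calls by the edgeR interaction, with a minimum of 30 counts or with only the 6 libraries, 2 with a pseudocount of 1, and with 1 library left out 0 to 524 at dawn and 0 to 26 at dusk. Depth limits Npas2, Slc34a2 and the 5′UTR reads of the ratio, which reach 0.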
